A study of Homo sapiens with 93 samples.

Results

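The 10 genes described here encode histones, the proteins that DNA is wound around. They were chosen by Ensembl identifier, and all 10 were found among the 14000 features counted. Of these, 6 are of the replication type (H1-2, H4C3, H2BC12, H2BC5, H2BC21 and H2AC6) and 4 are of the replacement type (H3-3A, H3-3B, H2AZ1 and H2AX). The mark measured was H3K36me3, trimethylation of lysine 36 of histone H3, in 93 human lymphoblastoid lines. Such lines are made by infecting B cells with Epstein-Barr virus, which keeps them dividing. It was measured by CUT&Tag, in which an antibody brings a transposase to chromatin and the DNA cut there is sequenced. Each line gave 1 library from 100000 frozen cells, grown with 20% serum and amplified with 14 PCR cycles, and the lines were cultured in 4 batches of about 20 to 35 that the labels do not assign to lines. All libraries form 1 group with no treatment or genotype contrast, so every comparison below is between genes, or across lines. Differences between lines hold line, culture and technical differences together, and p-values measure the spread between these libraries.

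H3K36me3 is laid down over gene bodies by SETD2, an enzyme that travels with elongating RNA polymerase, and it is usually read as a mark of transcribed genes. Replication-type histone genes sit in clusters, mostly lack introns, are transcribed mainly in S phase and give transcripts that end in a stem-loop instead of a poly(A) tail. They supply the bulk histones that package newly copied DNA. Replacement-type genes are expressed outside S phase as well: H3-3A and H3-3B both encode H3.3, which is put into chromatin independently of replication, H2AZ1 encodes the H2A.Z found around promoters, and H2AX encodes the H2A form that is phosphorylated at DNA breaks. H2AX itself lacks introns and gives both stem-loop and polyadenylated transcripts.

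Promoter sequences from RefSeq (GRCh38.p14) were available for 9 of the 10 genes, and are shown for the pair that moved together most closely (H2AC6 and H2BC5), for the carriers of an octamer motif, and for the 2 genes of H3.3. Each runs from 250 bases before the annotated start to 50 after it, 5′ to 3′ on the gene's strand, with the motifs searched in capitals. Where a gene has several annotated starts, the first listed is shown. They lie at chr6:26123922-26124221 (H2AC6, plus strand), chr6:26157871-26158170 (H2BC5, plus), chr6:27146809-27147108 (H2BC12, minus), chr1:149886633-149886932 (H2BC21, minus), chr1:226061581-226061880 (H3-3A, plus) and chr17:75779730-75780029 (H3-3B, minus).
H2AC6: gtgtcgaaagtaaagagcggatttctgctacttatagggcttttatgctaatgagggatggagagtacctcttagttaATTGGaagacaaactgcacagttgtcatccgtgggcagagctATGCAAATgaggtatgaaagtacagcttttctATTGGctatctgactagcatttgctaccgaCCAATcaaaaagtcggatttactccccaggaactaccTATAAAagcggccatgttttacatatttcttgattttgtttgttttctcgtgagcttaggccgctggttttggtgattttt
H2BC5: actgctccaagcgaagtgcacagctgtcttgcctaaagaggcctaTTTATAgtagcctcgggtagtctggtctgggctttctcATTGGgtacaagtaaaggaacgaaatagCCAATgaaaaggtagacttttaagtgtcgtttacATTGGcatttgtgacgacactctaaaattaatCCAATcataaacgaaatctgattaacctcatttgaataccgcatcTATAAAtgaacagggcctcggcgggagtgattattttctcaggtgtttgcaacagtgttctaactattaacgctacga
H2BC12: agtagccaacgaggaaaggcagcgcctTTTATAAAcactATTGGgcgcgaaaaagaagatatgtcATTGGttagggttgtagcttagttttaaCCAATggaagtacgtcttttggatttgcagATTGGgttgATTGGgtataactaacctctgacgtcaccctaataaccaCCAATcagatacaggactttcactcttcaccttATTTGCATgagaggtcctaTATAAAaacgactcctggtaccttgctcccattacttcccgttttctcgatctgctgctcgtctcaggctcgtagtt
H2BC21: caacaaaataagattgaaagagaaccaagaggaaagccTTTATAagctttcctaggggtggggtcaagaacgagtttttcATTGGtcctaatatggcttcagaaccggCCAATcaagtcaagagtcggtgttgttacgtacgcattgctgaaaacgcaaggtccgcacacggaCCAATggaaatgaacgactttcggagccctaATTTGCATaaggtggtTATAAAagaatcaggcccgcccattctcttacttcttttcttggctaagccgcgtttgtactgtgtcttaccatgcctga
H3-3A: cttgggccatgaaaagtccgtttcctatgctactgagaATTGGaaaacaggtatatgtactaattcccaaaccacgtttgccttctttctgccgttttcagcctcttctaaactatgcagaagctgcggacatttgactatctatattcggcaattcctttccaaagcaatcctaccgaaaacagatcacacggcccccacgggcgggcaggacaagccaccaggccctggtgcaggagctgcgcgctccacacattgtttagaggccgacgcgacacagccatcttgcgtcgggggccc
H3-3B: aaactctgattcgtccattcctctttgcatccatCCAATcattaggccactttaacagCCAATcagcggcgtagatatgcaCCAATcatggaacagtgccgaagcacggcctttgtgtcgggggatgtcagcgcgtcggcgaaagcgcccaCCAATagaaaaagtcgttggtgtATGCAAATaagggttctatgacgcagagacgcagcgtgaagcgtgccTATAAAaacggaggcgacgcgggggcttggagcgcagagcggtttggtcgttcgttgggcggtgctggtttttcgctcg

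The motifs were the octamer ATTTGCAT, CCAAT and TATAAA, each on both strands, and neighbouring matches may overlap. The octamer, a site read by POU-domain factors and a known element of H2B promoters, was found in 4 of the 9 promoters, against 1.77% of 34943 RefSeq promoters of the same length. In H2BC12 and H2BC21, which encode H2B, it stood at position -46 from the start, on the gene's strand. In H2AC6 it stood at -130 and in H3-3B at -76, both on the opposite strand. The octamer was not found in the window of H2BC5, the other H2B gene. CCAAT was found in 9 of 9, against 34.6% of all promoters. TATAAA was found in 7 of 9, against 11.6%, and not in the windows of H1-2 and H3-3A. The counts for these genes take the first listed start of each gene, while the shares take every distinct promoter. H3-3A has 4 listed starts, of which 1 has no CCAAT in its window, and H2BC12 and H2BC5 have 2 each.

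Library totals ran from 2842955 to 24325746 counts, with a median of 14883653. Levels are given as CPM, counts scaled to the library total after TMM adjustment, with no division by gene length unless stated. Over all 14000 features the median of the feature medians was 42.1 CPM, with quartiles of 17.5 and 91. The identifiers are not paired with symbols in the files or in the reference table used (0 of 14000 matched), so the labelled B cell identity was not checked against marker genes. The sources used here do not state the interval counted for each gene, or how reads shared by near-identical histone copies were treated. The values of the clustered genes, and of H3-3A and H3-3B, are uncertain in this respect.

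Among the replication-type genes, H2AC6 and H2BC5 had the most H3K36me3 counts, H2BC21 fewer, and the other 3 under 10 counts in the median line. These are values per gene, not per length, so they set how well each gene was measured and are no comparison of mark density between genes. H2AC6 (ENSG00000180573), which encodes an H2A, had 10.8 CPM in the lowest line, a median of 21.8 and 54.2 in the highest, from 61, 300 and 986 counts. Its median stood at the 30.5th percentile of all features. H2BC5 (ENSG00000158373), which encodes an H2B, had 7.24 CPM in the lowest line, a median of 11.5 and 24.5 in the highest, at the 16.8th percentile. Both genes were counted in every line, and their highest lines stood 5.03 (H2AC6) and 3.38 (H2BC5) times above their lowest.

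H2BC21 (ENSG00000184678), an H2B gene on chromosome 1 at 149884459 to 149886682, ran from 0 to 3.75 CPM with a median of 1.91, and had at least 10 counts in 81 libraries. H1-2 (ENSG00000187837), which encodes a linker histone from chromosome 6 at 26055740 to 26056470, ran from 0 to 2.21 CPM with a median of 0.594, that is 7 counts. H2BC12 (ENSG00000197903), another H2B gene, at 27138293 to 27146858 on the same chromosome, ran from 0 to 1.68 with a median of 0.669 and 8 counts. H4C3 (ENSG00000197061), an H4 gene at 26103933 to 26104337, ran from 0 to 1.18 with a median of 0.442 and 5 counts. These 3 medians lie below the 1st percentile of all features (0.436, 0.55 and 0.264), and none of the 3 genes had 10 counts in the 47 libraries required for testing. Zeros occurred in 4 libraries for H1-2, 3 for H4C3, 3 for H2BC12 and 1 for H2BC21. A zero count allows a level of 3 counts in that library (counting error only), which was 0.494 to 0.740 CPM for H1-2, 0.213 to 0.598 for H4C3 and 0.485 to 1.06 for H2BC12. These limits span the medians of the 3 genes, so some of their zero lines could not be told from the median and others lay below it. For H2BC21 the limit was 0.622 CPM, below its median of 1.91.

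All 4 replacement-type genes passed the count filter. H3-3A (ENSG00000163041; chromosome 1, 226061831 to 226072019) had 25 CPM in the lowest line, a median of 40.6 and 66.9 in the highest, at the 48.8th percentile. H3-3B (ENSG00000132475; chromosome 17, 75776434 to 75779779), which encodes the same protein, had 8.96, 14.6 and 25.9 CPM at the same points, at the 21.4th percentile. In CPM, not divided by length, the ranges of these genes of H3.3 overlapped only narrowly, between the lowest H3-3A line and the highest H3-3B line. Per kilobase of the annotated span they overlapped widely, at 2.46 to 6.57 CPM for H3-3A and 2.68 to 7.73 for H3-3B. H2AZ1 (ENSG00000164032; chromosome 4, 99948088 to 99950275) had 2.08, 6.27 and 11.5 CPM. H2AX (ENSG00000188486; chromosome 11, 119093874 to 119095465) had 0.368, 4.16 and 12.1 CPM, the lowest value resting on 1 count. Spans given for genes are those of RefSeq on GRCh38.p14, and cover whole genes. By median CPM, not divided by length, the order was H3-3A, H2AC6, H3-3B, H2BC5, H2AZ1, H2AX, H2BC21, H2BC12, H1-2 and H4C3. Every neighbouring pair in that order overlapped in range across lines, and all 10 medians were below the 42.1 CPM of the middle feature, H3-3A least so. The level of the table itself differs between stretches of rows: the median feature had 4.88 log2 CPM in the stretch that holds H3-3B and 5.20 in that of H2AX, against 5.75 in that of H3-3A and H2BC21 and 5.77 in that of the other 6 genes. The order was not adjusted for this, and H3-3B and H2AC6 differ in median by less than those stretches do.

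**Figure D1:**
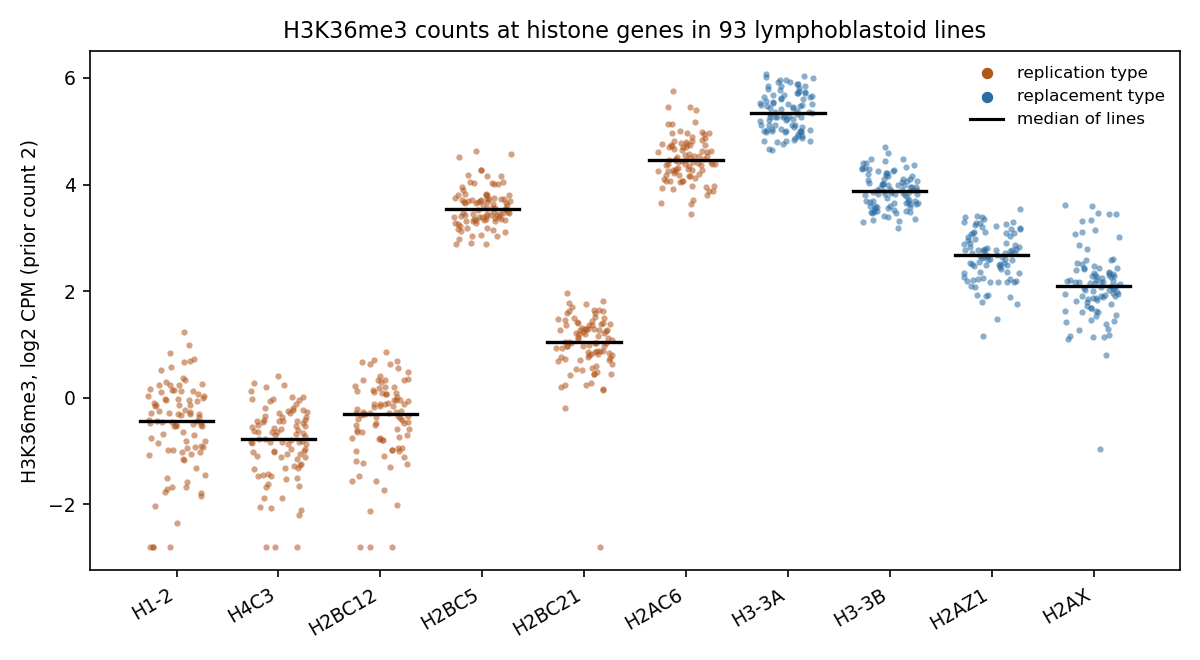
H3K36me3 level of each histone gene, as log2 CPM with a prior count of 2, with 1 point per line (93 lines) and a bar at the median, replication type left and replacement type right. Levels are not divided by gene length. H2AC6 and H2BC5 have medians of 21.8 and 11.5 CPM, H1-2, H4C3 and H2BC12 of 0.442 to 0.669 CPM, and the 4 replacement-type genes of 4.16 to 40.6 CPM.

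Levels can be compared between genes only per length, and the RefSeq span is the one length at hand. On this scale H2BC5 was level with H2BC21 and H1-2. Its value depends on its annotated span of 13229 bases, the longest of the 10. Per kilobase of the span, the median level was 0.813 CPM for H1-2, 1.09 for H4C3, 0.868 for H2BC5 and 0.859 for H2BC21, against 2.61 for H2AX, 2.87 for H2AZ1, 3.98 for H3-3A and 4.36 for H3-3B. H2AC6 and H2BC12 fell far outside these on opposite sides, at 42 and 0.0781 CPM per kilobase, with annotated spans of 519 and 8566 bases. Since the counted interval may differ from the annotated span, no test was made on this scale.

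Counting error was closer to the observed spread in the faintest genes than in H2AC6 or H2BC5. The coefficient of variation (SD over mean CPM across lines) was 0.539 for H4C3 and 0.636 for H1-2, where counting error alone would give 0.463 and 0.392. For H2AC6 it was 0.319 where counting error would give 0.0661, and for H2BC5 0.278 where it would give 0.0909. H3-3A and H3-3B had 0.259 and 0.237, and H2AZ1 and H2AX had 0.309 and 0.50. The median over the features tested was 0.205.

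A feature was called variable when it passed edgeR's goodness-of-fit test at adjusted p under 0.05, with depth and dynamic range as covariates. The test asks whether counts vary more than the trended dispersion, that of features of like count, allows. The ratio of a feature's own to the trended dispersion is a separate estimate and did not set the call. Dynamic range is the gap between the median log2 CPM of the top and bottom quintile of features, a property of each library. Of the 7 histone genes tested, 4 were called (H2AC6, H2BC5, H2AZ1 and H2AX), against 18.4% of the 13915 features. H2AC6 had a log2 ratio of own to trended dispersion of 1.44 (edgeR adjusted p = 1.03e-12), higher than 94.0% of features. H2AX had 1.6 (edgeR adjusted p = 2.53e-11), H2AZ1 0.79 (edgeR adjusted p = 0.00286) and H2BC5 0.61 (edgeR adjusted p = 0.0209). H2BC21, H3-3A and H3-3B did not pass, with ratios of 0.14, 0.12 and -0.07 (edgeR adjusted p = 0.539, 0.863 and 1). The median ratio of all features tested was -0.56. With no filter on low counts 7 of 10 were called, H1-2, H4C3 and H2BC12 being added, against 19% of the 14000 features. The call of H2BC5 was lost without the 10 libraries of lowest total (edgeR adjusted p = 0.0585) and with no covariates (ratio 0.10, edgeR adjusted p = 0.797). That of H2AZ1 was lost with no covariates, and with 5 or 10 principal components in their place (edgeR adjusted p = 0.117, 0.0743 and 1), and H3-3A was called with no covariates (ratio 0.55, edgeR adjusted p = 0.014). DESeq2's dispersion outlier rule called none of the 7 and 255 features in all.

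H2AX lies where the count table changes level. Its row, number 2818, falls in a stretch, from row 1900 to row 3200, in which the level of neighbouring rows drops by 0.866 (log2) at a position that differs from library to library. The last row before the drop ran from 2017 to 3047, with a median of 2668. H2AX lay before the drop in 15 lines, with 4.81 CPM in the lowest, a median of 8.71 and 12.1 in the highest, and after it in 78 lines, with 0.368, 3.9 and 7.98 CPM. The ranges overlapped. Mean log2 CPM was 3.08 ± 0.44 (SD, n = 15) before the drop and 1.92 ± 0.54 (SD, n = 78) after it, a difference of 1.16. The 20 nearest rows differed by 0.95. Those rows, unlike that of H2AX, were among the rows used to place the drop, so their difference is no independent measure. With the side of the drop as a further covariate, an alternative chosen after seeing the data, H2AX was no longer called variable (log2 ratio 0.50, edgeR adjusted p = 0.0909). None of the other 9 genes lies in that stretch.

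**Figure D2:**
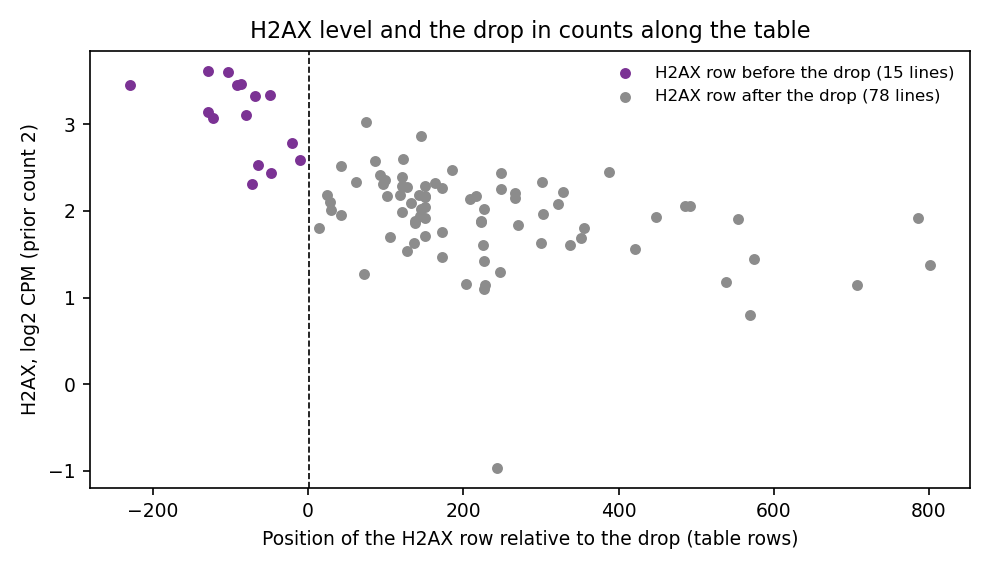
H2AX level in each of the 93 lines (log2 CPM) against the position of its row relative to the drop in that library, in table rows, with the drop as a dashed line. The 15 lines in which H2AX precedes the drop average 3.08 and the 78 in which it follows average 1.92.

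All 4 replacement-type genes rose with the dynamic range of the library, and none of the 3 tested replication-type genes passed. Per log2 unit of dynamic range, H3-3A rose by 1.42 ± 0.18 (SE; edgeR quasi-likelihood adjusted p = 7.76e-12), H3-3B by 1.0 ± 0.19 (edgeR adjusted p = 2.9e-06), H2AX by 1.43 ± 0.37 (edgeR adjusted p = 0.000263) and H2AZ1 by 0.69 ± 0.29 (edgeR adjusted p = 0.0255). Of all features, 44.7% rose and 35.6% fell with dynamic range. H2BC5 had a slope of -0.49 ± 0.24, H2BC21 -0.42 ± 0.33 and H2AC6 0.22 ± 0.29 (edgeR adjusted p = 0.0602, 0.227 and 0.475). The slope of H2AZ1 did not pass without the 10 libraries of lowest total (edgeR adjusted p = 0.0659), and there that of H2BC5 did (-0.56, edgeR adjusted p = 0.035). The slope also varies with level, since dynamic range is itself defined from levels: its median over features of the same decile of mean level was -0.60 for H2BC5, -1.03 for H2BC21, H2AZ1 and H2AX, -0.22 for H3-3B, 0.10 for H2AC6 and 0.25 for H3-3A. H2BC5 and H2AC6 lay close to these medians, and the other 5 genes lay further above them. Whether the 2 classes differ in slope was not tested. With the side of the drop as a covariate the slope of H2AX was 0.39 (edgeR adjusted p = 0.236).

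With sequencing depth, 1 of the 7 genes rose and 1 fell. Per doubling of the library total, H2AX rose by 0.46 ± 0.085 (SE; edgeR adjusted p = 1.78e-06) and H2BC5 fell by 0.15 ± 0.052 (edgeR adjusted p = 0.00782), and the other 5 did not pass. Over all features 29.3% rose and 36.1% fell. Depth and dynamic range together accounted for 52.8% of the variance of H3-3A, 28% of H2AX, 25.4% of H3-3B and 10.5% of H2AZ1. For H2BC5, H2BC21 and H2AC6 the share was 6.89%, 6.06% and 6.0%. With the side of the drop as a covariate the depth slope of H2AX was 0.23 (edgeR adjusted p = 0.00276).

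**Figure D3:**
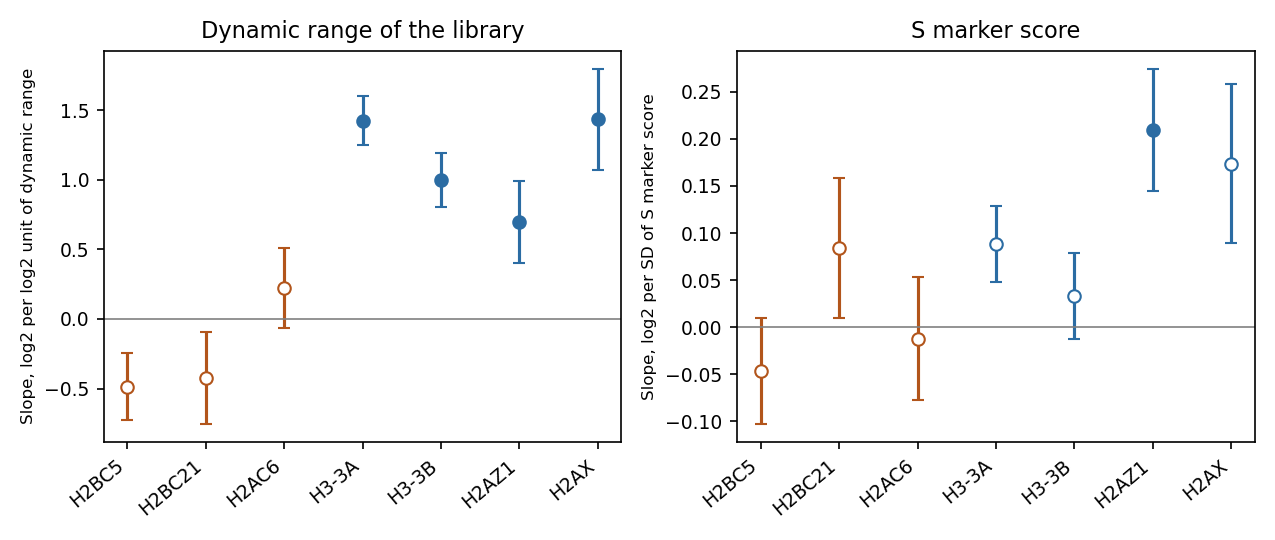
Slopes of the 7 tested histone genes on the dynamic range of the library (left, log2 per log2 unit) and on the S marker score (right, log2 per SD), with standard errors as bars and filled points for adjusted p under 0.05. On dynamic range H3-3A, H3-3B, H2AZ1 and H2AX have slopes of 0.69 to 1.43, while H2BC5, H2BC21 and H2AC6 lie between -0.49 and 0.22, and on the S score H2AZ1 alone is filled.

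Because replication-type genes are transcribed in S phase, the 7 genes were set against scores made from the H3K36me3 level of cell-cycle marker genes. Of the 100 marker genes per phase, 89 were used for S, 93 for G1 and 90 for G2M, and no histone gene studied here was among them. On the S score, 1 of the 7 genes rose and none fell, against 18.3% and 6.03% of all features. That gene was H2AZ1, with 0.21 ± 0.065 per SD of score (SE; edgeR quasi-likelihood adjusted p = 0.0125), and it did not pass with DESeq2 size factors. The replication-type genes had slopes of 0.08 ± 0.074 (H2BC21), -0.01 ± 0.065 (H2AC6) and -0.05 ± 0.056 (H2BC5), none passing (edgeR adjusted p = 0.426, 0.912 and 0.576). Small slopes can be missed: in simulated data 55 of 100 planted slopes of 0.1 per SD were recovered, and 100 of 100 of 0.3. On the G1 score 5 of 7 genes rose and none fell, against 32.5% and 24.4% of features, with slopes per SD of 0.52 for H2AZ1, 0.37 for H2AX, 0.34 for H3-3A, 0.30 for H2BC21 and 0.27 for H3-3B (edgeR adjusted p = 1.04e-10, 0.00195, 3.62e-14, 0.00371 and 2.35e-06). On the G2M score 4 of 7 rose and none fell, against 26.9% and 19.5%, namely H2AZ1, H3-3A, H2BC21 and H3-3B. Of the replication-type genes, H2AC6 and H2BC5 passed on neither score, and H2BC21 passed on both (G2M slope 0.34, edgeR adjusted p = 0.00286). H2BC21 lost both calls under the deposited scores, with no covariates, with 5 principal components and in either depth subset (edgeR or limma adjusted p of 0.0741 to 0.984). The scores were themselves correlated across lines, with r = 0.953 for G1 and G2M, 0.716 for G1 and S, and 0.611 for S and G2M. With depth and dynamic range removed, these were 0.858, 0.588 and 0.472. The 3 scores are therefore not separate measures of the phases. With the first 10 principal components of the features as covariates in place of depth and dynamic range, no histone gene passed on any of the 3 scores. With the side of the drop as a further covariate, H2AX passed on S, G2M and G1. Its slopes were 0.17, 0.25 and 0.30 (edgeR adjusted p = 0.0267, 0.0118 and 0.00064). In those fits 4015, 6788 and 7789 of the 13915 features were called in either direction.

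Across lines H2AC6 and H2BC5 moved together most closely of the histone genes tested. Of the 21 pairs among the 7 genes tested, 14 were called, all positive: 1 of 3 replication pairs, 6 of 6 replacement pairs and 7 of 12 mixed pairs. A pair was called when the residual log2 CPM of each gene passed as a term for the other in edgeR's quasi-likelihood test. In those fits the share of all features that rose was 5.79% for H2BC5, 5.51% for H2AC6 and 9.08% for H2BC21, against 30.7% for H3-3A, 28.2% for H3-3B, 25.8% for H2AZ1 and 17.9% for H2AX. The share that fell was 4.92% for H2BC5, 4.97% for H2AC6 and 3.69% for H2BC21, against 25.4% for H3-3A, 23% for H3-3B, 20.6% for H2AZ1 and 18.2% for H2AX. The 6 replacement pairs are therefore to be read against a high background in both directions. A mixed pair has a high background only with the replacement-type gene as the term. In each of the 7 called mixed pairs, the larger edgeR adjusted p came with the replication-type gene as the term. The share of all feature pairs that would pass in both directions was not computed.

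H2AC6 and H2BC5 had a Pearson r of 0.754 and a Spearman rho of 0.756 over 93 lines (permutation p = 1e-05 for each, the smallest that 100000 permutations give). The edgeR adjusted p was 5.15e-16 with H2BC5 as the term and 9.35e-16 with H2AC6 as the term, and r was 0.729 without the 2 lines farthest from the median. Each was the feature most correlated with the other among 13914. The 10 highest lines of H2AC6 and of H2BC5 had 6 in common, the 10 lowest had 5, and the residuals had the same sign in 72 of 93 lines. Within the 46 shallower libraries r was 0.605, and within the 47 deeper ones 0.89. The pair was the only one of the 21 still called with 5 (r = 0.717) or 10 (r = 0.657) principal components as covariates.

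The rows of H2AC6 and H2BC5 are 2 apart in the table. Their RefSeq spans lie on chromosome 6 at 26124172 to 26124690 (H2AC6) and 26158121 to 26171349 (H2BC5), 33430 bases apart. Among 13842 pairs of features 2 rows apart, mean r was 0.176 ± 0.270 (SD) and 2.33% reached the r of this pair or more. Between the rows of H1-2 and H2BC12 lie 29 other features, of which 24 were tested. Their median r was 0.277 with H2AC6 and 0.295 with H2BC5, and 1 and 2 of them exceeded 0.5. Whether the counted intervals of H2AC6 and H2BC5 share reads is not given, and it was not tested.

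**Figure D4:**
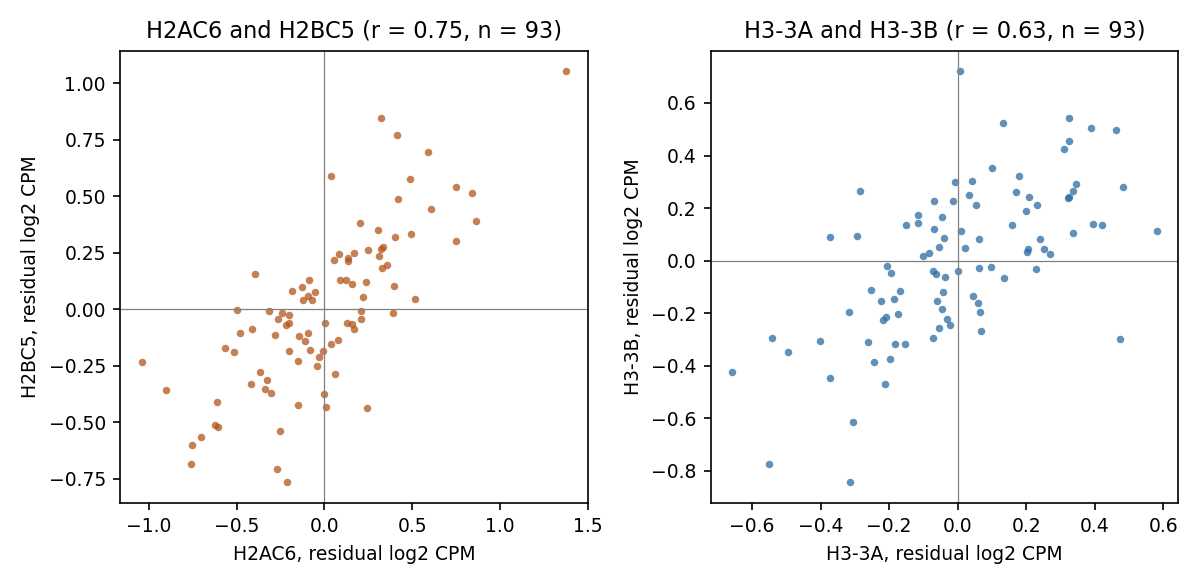
Residual log2 CPM of H2BC5 against H2AC6 (left) and of H3-3B against H3-3A (right), with 1 point per line (93 lines), after removing depth and dynamic range. Points run from low in both genes to high in both, with r = 0.754 on the left and 0.633 on the right.

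H3-3A and H3-3B, which encode the same protein from chromosomes 1 and 17, had r = 0.633 and rho = 0.630 (permutation p = 1e-05 each, the smallest possible; r = 0.631 without the 2 farthest lines; edgeR adjusted p = 1.43e-09 and 2.94e-09). H3-3A and H2AZ1 had r = 0.621 and rho = 0.610 (permutation p = 1e-05 each; r = 0.629 without the 2 farthest lines). H3-3B and H2AZ1 had r = 0.530 and rho = 0.464 (permutation p = 1e-05 each; r = 0.472 without the 2 farthest lines). None of the 3 pairs was called with 5 or 10 principal components, and with 10 the r of H3-3A and H3-3B was 0.02. H3-3A also exceeded r = 0.5 with 9.45% of all other features, against 0.187% for H2AC6 and 0.101% for H2BC5, and the share was 5.62% for H3-3B, 4.57% for H2AZ1 and 0.568% for H2AX.

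H2AX was called with all 3 other replacement genes (r = 0.39 with H3-3A, 0.398 with H3-3B and 0.299 with H2AZ1; rho = 0.34, 0.321 and 0.32; permutation p of r = 0.00016, 0.0001 and 0.00389; r = 0.333, 0.371 and 0.273 without the 2 farthest lines). With the side of the drop as a covariate, r was 0.374, 0.333 and 0.261, and the pair with H2AZ1 no longer passed (edgeR adjusted p = 0.0802). Its mean r with the 10 nearest rows was 0.468, and 0.0605 with that covariate. The drop was placed using rows that include these 10, so the lower value cannot be read as a separate result. Of the mixed pairs, H3-3A was called with all 3 replication genes, at r = 0.458 with H2BC21, 0.392 with H2BC5 and 0.375 with H2AC6 (rho = 0.407, 0.355 and 0.349; permutation p of r = 1e-05, 0.00012 and 0.0002; r = 0.392, 0.375 and 0.317 without the 2 farthest lines). The 7 pairs not called ran from r = -0.0138 (H2AC6 and H2AX) to 0.294 (H2BC5 and H2BC21), this last pair with rho = 0.2, a permutation p of 0.00462 for r and edgeR adjusted p = 0.182 and 0.0649. That pair of H2B genes was called by limma (adjusted p = 0.042 and 0.0367). In the 47 deeper libraries H3-3A was called with none of H2BC21, H2BC5 and H2AC6 (r = 0.246, 0.257 and 0.345). In the 46 shallower libraries it was called with all 3 (r = 0.563, 0.565 and 0.487). With no covariates it was called with H2AC6 (r = 0.407) but not with H2BC21 or H2BC5 (r = 0.159 and 0.265).

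**Figure D5:**
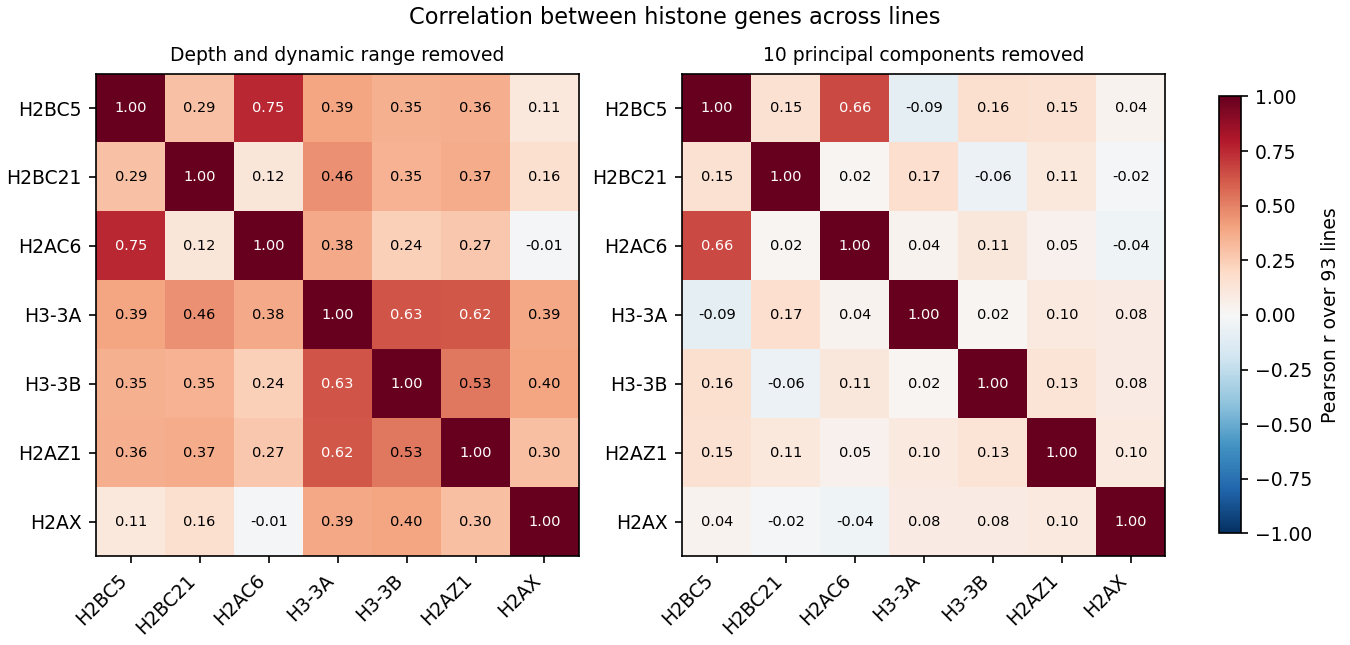
Pearson r of residual log2 CPM between the 7 tested histone genes over 93 lines, replication type first, with depth and dynamic range removed (left) or 10 principal components removed in their place (right). On the left r runs from -0.0138 (H2AC6 and H2AX) to 0.754 (H2AC6 and H2BC5), and on the right H2AC6 and H2BC5 stand apart at 0.657.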

How the data were processed

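The authors deposited raw read counts per Ensembl identifier (14000 features, 93 libraries, totals of 2842955 to 24325746) and a second table of score values centred on 0, whose making is not stated. HISAT2 2.2.1, bedtools and hg38 are named per the submitters' processing notes; the counted interval, strand and handling of multiply mapped reads are not stated there. Counts were scaled with TMM (edgeR 4.0.16, R 4.3.3) and expressed as CPM and as log2 CPM with a prior count of 2. Tests used the 13915 features that reached 10 counts in 47 or more libraries, with depth (log2 total) and dynamic range in the model, and Benjamini-Hochberg adjustment over all features at 0.05. Variability was tested with edgeR's goodness-of-fit test and slopes with its quasi-likelihood test. Marker scores came from scran 1.30.0 marker pairs, leaving out the histone genes and rows within 20 of them. The alternatives were limma 3.58.1, DESeq2 1.42.0, the deposited scores, no filter, other covariates, and depth subsets. Procedures were tested on simulated data. Gene names came from the selection rule. Each of the 10 genes was to be named, with its 3 most similar features and lists of histone processing, chaperone and other histone genes and cell type markers; these could not be used because identifiers are not paired with symbols. Members and lists were chosen with earlier results of these data known. The promoters and spans are from RefSeq GRCh38.p14. Intervals from counts cover counting error only, since the reads carry no stated molecular identifiers.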

Additional observations from a re-analysis of the deposited data

How the results depend on the processing

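No paired analysis was possible because all libraries form 1 group. Of the main counts and levels, 79 values stayed within their limits under the alternatives and 24 moved. For single genes and pairs, 304 values kept direction and call, 91 lost the call, 10 gained it and 29 changed sign; the causes were not tested. DESeq2's outlier rule called 255 features and 0 histone genes variable, and 7 histone genes were called with no filter, H1-2, H4C3 and H2BC12 being the ones added. With dynamic range, 1 gene fell under DESeq2 size factors, with no filter and without the 10 libraries of lowest total. Genes rising with the G1 score numbered 2 with 5 and 0 with 10 principal components. With the S score they were 0 under the deposited scores, DESeq2 size factors, 10 principal components and in either depth subset, and 4 with no covariates. With G2M they were 2 under the deposited scores and in either depth subset, and 0 with 5 or 10 principal components. Pairs called were 8 with no covariates, 1 with 5 and 1 with 10 principal components, 9 in the 46 shallower libraries and 6 in the 47 deeper. The dispersion ratio turned to -0.60 (DESeq2) and -0.35 (no covariates) for H2BC21, and for H3-3A to -0.014 (DESeq2), -0.033 (without the 10 libraries), -1.13 (5 components) and -1.30 (10 components). The depth slope of H3-3B was 0.0037 under limma. Slopes on the S score turned to -0.079 (deposited scores), -0.0014 (no covariates) and -0.31 (shallower) for H2BC21, to 0.012 (no covariates) and 0.036 (5 components) for H2AC6, to -0.049 (deposited scores) and -0.026 (shallower) for H3-3A, and to -0.0075 (shallower) for H2AX. For H3-3B they turned to -0.30 (deposited scores), -0.015 (DESeq2 size factors), -0.019 (5 components), -0.039 (10 components), -0.080 (shallower) and -0.050 (deeper). With 10 components the G1 slope of H3-3B was -0.057, and G2M slopes were -0.16 for H3-3B, which had -0.080 with 5 components, and -0.048 for H2AZ1. The G2M slope of H2BC21 was -0.0012 with no covariates. The r of H2BC5 and H3-3A was -0.090 and that of H2BC21 and H3-3B was -0.062 with 10 components, and that of H2AZ1 and H2AX was -0.010 with 5. Features rising with the S score ranged from 65 to 5922 against 2545 in the fit reported. Levels per kilobase are in another unit and have no such comparison. Depth limits H1-2, H4C3 and H2BC12 most, with medians of 5 to 8 counts.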
